A study of Mus musculus with 8 samples.

Results

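Miz1, the zinc finger protein encoded by Zbtb17, works with protein partners besides Myc, and the genes of 8 of them are described here: Gfi1, Gfi1b, Bcl6, Zbtb16, Zbtb4, Huwe1, Topbp1 and Hcfc1. They were chosen because their products are reported to bind Miz1, and their symbols were mapped to the gene identifiers of the count tables. All 8 were found among the 41214 identifiers, of which 27639 had a count in at least 1 library, and all 8 passed the filter on low counts that left 16456 genes to test.

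Miz1 either activates or represses its target genes, and which of these it does depends on the protein that sits with it on the promoter. Its amino-terminal POZ domain (also called BTB) is a protein contact surface through which such factors form multimers, and several partners are themselves POZ zinc finger proteins. Gfi1, Bcl6 and Zbtb4 are known to be brought by Miz1 to promoters of cell cycle inhibitors such as Cdkn1a, while Huwe1, Topbp1 and Hcfc1 bind Miz1 and change its stability or its activity.

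The RNA came from spleen tumours of 8 mice of the C57Bl6 strain, sequenced as poly(A)-selected libraries. The B wt and B deltaPOZ groups were B cell tumours, the T wt and T deltaPOZ groups were CD4+ T cell tumours, and each group held 2 libraries from 2 separate mice (n = 2). In the deltaPOZ groups Miz1 lacked its POZ domain, and in the wt groups it was intact. The labels and the design text name neither the oncogene or treatment behind the tumours, nor the age of the mice, nor the promoter and cell type of the deletion. The names of the deposited tables carry 1 run tag for all B tumours and another for all T tumours, so tumour lineage and run cannot be told apart. The T names also carry the tag Notch, and those of T deltaPOZ, not of T wt, carry the tag ENU. What these tags mean for the mice is not stated, and genotype and ENU tag cannot be told apart in T.

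Library totals ran from 44.3 to 58.3 M gene counts, at which 0 counts leave room for levels up to 0.0515 CPM in the deepest and 0.0677 CPM in the shallowest library (3 counts, counting error only). CPM are counts scaled to the library total, with factors from the trimmed mean of M values. The labelled lineages carried their markers: the summed level of 8 B lineage genes was 1818 to 2868 CPM in B and 25.4 to 137 CPM in T. That of 9 T lineage genes was 2233 to 3215 CPM in T and 18.5 to 65.1 CPM in B. Within its own lineage each sum was lower in deltaPOZ, without overlap. The B lineage sum was 2868 and 2309 CPM in B wt and 1918 and 1818 CPM in B deltaPOZ. The T lineage sum was 3028 and 3215 CPM in T wt and 2233 and 2519 CPM in T deltaPOZ. By log2 difference 7 of 8 B lineage genes were lower in B deltaPOZ and 7 of 9 T lineage genes in T deltaPOZ. Of these edgeR called none, beside 0.00608% of all genes in B and 0.0% in T. Xist was at 975 and 1477 CPM in B wt but at 0.936 and 0.757 CPM in B deltaPOZ, so the B genotypes were of different sex and cannot be told apart from it. Of the libraries, 4 stood apart. B wt 2 had 1315 CPM of 10 neutrophil and macrophage genes against 94.4 to 226 CPM in the other B libraries, T wt 1 had both Xist (1246 CPM) and the Y-linked Ddx3y (22.5 CPM), and T deltaPOZ 2 had 414 CPM of 7 innate-like T and NK genes against 150 to 276 CPM in the other T libraries. Of these 414 CPM, 298 were Gzma, which was at 52.8 to 134 CPM in the other T libraries. Cd160 was also highest in T deltaPOZ 2 (28.2 CPM), and the rest of these genes were not. T deltaPOZ 2 also had 25387 genes with a count, against 18339 to 21078 in the other libraries. B deltaPOZ 2 had 222 CPM of 11 erythroid genes against 5.31 to 13.2 CPM in the other B libraries. B wt 2, T wt 1 and T deltaPOZ 2 were left out together in 1 fit. B deltaPOZ 2 was left out on its own, since without all 4 each group would hold 1 library and no residual degrees of freedom would remain. Zbtb17 averaged 57.1 ± 12.8 CPM for B wt, 54.2 ± 6.90 for B deltaPOZ, 45.9 ± 5.17 for T wt and 38.5 ± 2.25 for T deltaPOZ (SD, n = 2). A count over the whole gene does not show whether the exons of the POZ domain were lost, so it does not check the genotype.

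The promoters of Gfi1b and Bcl6 are shown because these genes had the largest differences between T and B tumours of the 8, and because both encode repressors with a short known binding motif. Each sequence is the 250 bases before a RefSeq transcription start of GRCm38.p6, read on the strand of the gene, with chr2:28621983-28622232 for Gfi1b and chr16:23988853-23989102 and chr16:23981284-23981533 for the upstream and downstream start of Bcl6, all on the minus strand. Capitals mark every match, on either strand, to AATC, the core read by Gfi1 and Gfi1b, and to TTCNNNGAA, the spacing read by Bcl6 and by STAT factors. Matches to AGATAA, a form of the GATA factor site, were marked in the same way.
Gfi1b: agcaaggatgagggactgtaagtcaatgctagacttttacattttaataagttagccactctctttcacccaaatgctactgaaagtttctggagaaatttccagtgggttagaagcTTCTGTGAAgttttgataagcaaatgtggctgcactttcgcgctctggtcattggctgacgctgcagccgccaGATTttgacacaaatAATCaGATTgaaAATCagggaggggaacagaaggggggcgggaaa
Bcl6 upstream start: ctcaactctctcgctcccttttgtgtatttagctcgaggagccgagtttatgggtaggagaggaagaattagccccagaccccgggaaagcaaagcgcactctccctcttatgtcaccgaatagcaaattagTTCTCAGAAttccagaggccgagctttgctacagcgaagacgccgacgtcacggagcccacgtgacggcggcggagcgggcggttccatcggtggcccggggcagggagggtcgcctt
Bcl6 downstream start: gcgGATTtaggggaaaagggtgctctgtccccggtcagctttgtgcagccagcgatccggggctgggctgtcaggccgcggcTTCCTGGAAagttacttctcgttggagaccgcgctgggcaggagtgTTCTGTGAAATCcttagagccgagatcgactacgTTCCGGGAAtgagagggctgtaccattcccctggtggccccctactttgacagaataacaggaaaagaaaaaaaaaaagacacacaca

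The Gfi1b promoter held 4 AATC cores, with first bases at -60, -45, -40 and -33 from the start, 2 of them reversed. AATC is short: 73.1% of the 32851 promoter windows of 300 bases had at least 1, and 10.1% had 4 or more, a count looked up after these sequences were seen. TTCNNNGAA occurred in 8.30% of all windows, once in Gfi1b (at -133), once at the upstream start of Bcl6 (at -118) and 3 times at its downstream start (at -168, -122 and -88), where the second match overlaps an AATC. Windows with 3 or more such matches made up 0.0335% of all (11 of 32851), again a count looked up after the fact. AGATAA was in 11.2% of windows and in none of these 3. Other forms of the GATA factor site, such as the TGATAA that the Gfi1b sequence holds, were not searched for. The promoter table had no entry for Zbtb16. A match is a description of letters and not a bound site.

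Between tumour lineages, Gfi1b, Bcl6 and Hcfc1 were higher in T than in B tumours, and all 8 genes had a positive T minus B difference. Those of Topbp1 (0.02, SE 0.15) and Huwe1 (0.08, SE 0.14) were smaller than their SE and turned in sign under some other settings. The 3 genes of 8 past an adjusted p of 0.05 (37.5%) stood beside a background of 35.3% of all tested genes called in either direction and 19.3% called higher in T (edgeR quasi-likelihood test over all 8 libraries, Benjamini-Hochberg over 16456 genes). The count of calls is thus near the background for either direction. An unadjusted p under 0.05 was found for 6 of 8, and for 46.6% of all genes. The median log2 difference of the 8 was 1.17, against 0.05 over all tested genes, 52.4% of which were positive. In 4 of 8 genes (Gfi1, Gfi1b, Bcl6 and Hcfc1) no T library overlapped a B library, as in 37.1% of all tested genes. The counts of calls by tool were 3 with edgeR, 4 with limma-voom, where 35.3% of all genes were called, and 6 with DESeq2, where 41.9% were. Without the 3 libraries left out together 0 of 8 were called, in an edgeR fit with 1 residual degree of freedom that called 7.90% of all genes. Without B deltaPOZ 2 edgeR called 4 of 8.

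Between genotypes none of the 8 passed the same test, in B or in T. In B tumours 0 of 8 were called beside a background of 0.00608% (1 gene), and 2 (Gfi1b and Zbtb4) had an unadjusted p under 0.05, as had 12.1% of all genes. In T tumours 0 of 8 were called beside a background of 0.0%, and only Zbtb16 had an unadjusted p under 0.05, as had 2.65% of all genes. DESeq2 called Gfi1b in B, where it called 4.84% of all genes, and none of the 8 in T, where it called 0.31%; limma-voom, with 0.0365% of all genes called in B and 0.0% in T, called none of the 8. deltaPOZ and wt libraries did not overlap for 3 of 8 genes in B (Gfi1b, Zbtb16 and Zbtb4), as for 38.9% of all genes, and for 4 of 8 in T (Bcl6, Hcfc1, Zbtb16 and Zbtb4), as for 32.4%. Zbtb16 and Zbtb4 were the 2 of 8 that did not overlap in either lineage with the same direction in both, higher and lower in deltaPOZ respectively, which was so for 8.02% of all genes.

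**Figure D1:**
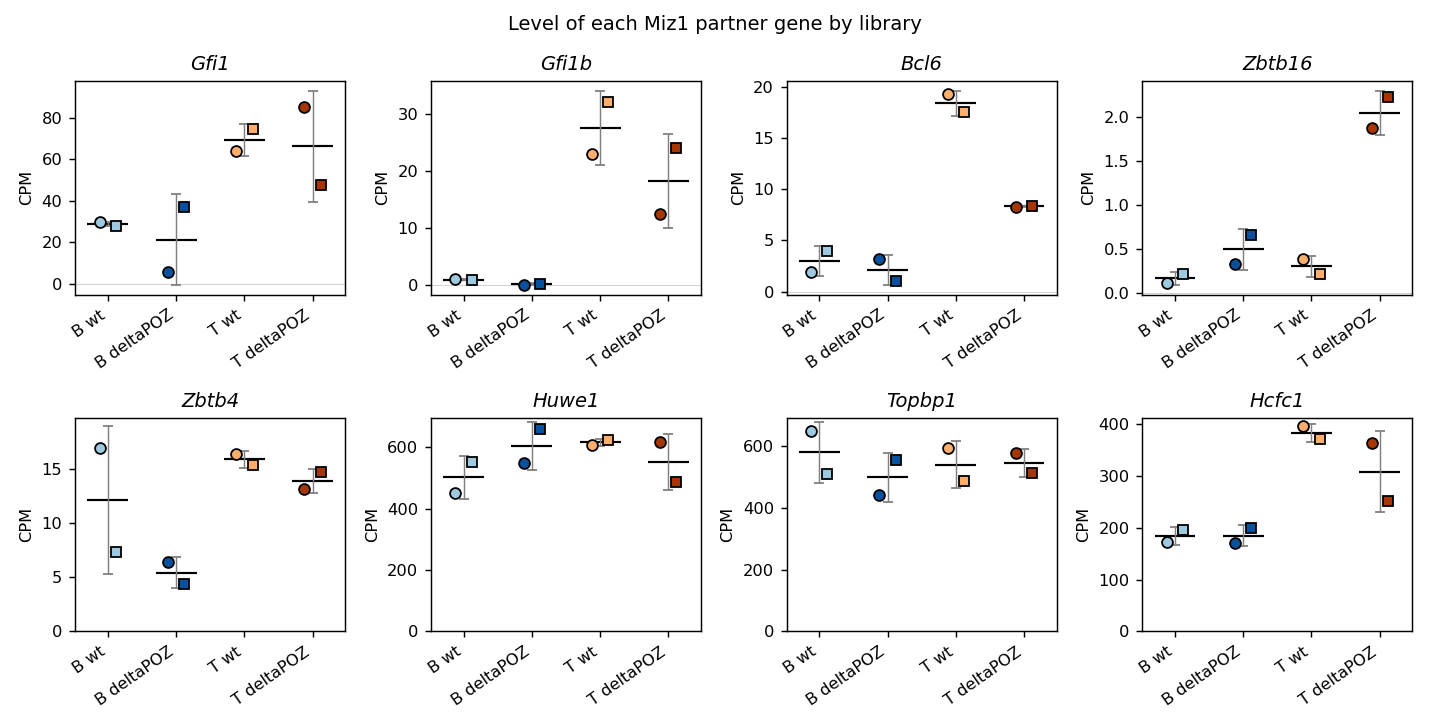
Level of each of the 8 genes in CPM (vertical axis, linear) in the 4 groups; circles are replicate 1, squares replicate 2, lines and bars the mean ± SD (n = 2). Gfi1b and Bcl6 sit low in all B libraries, and Zbtb16 stands at 1.87 and 2.22 CPM in T deltaPOZ and at or under 0.658 CPM in the other groups.

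Gfi1b (ENSMUSG00000026815, chr2:28609450-28621982, minus strand) encodes a zinc finger repressor that is needed for the making of red cells and platelets and binds the same motif as Gfi1. It had 52 and 38 counts (B wt), 0 and 11 (B deltaPOZ), 1235 and 1788 (T wt) and 681 and 1457 (T deltaPOZ). In CPM these were 0.987 and 0.845 (B wt), 0 and 0.219 (B deltaPOZ), 22.9 and 32.2 (T wt) and 12.5 and 24.1 (T deltaPOZ). Every T library thus lay above every B library, the B wt libraries lay above the B deltaPOZ libraries, and the T genotypes overlapped. In order of the group means Gfi1b went from T wt through T deltaPOZ and B wt to B deltaPOZ, and only the T groups overlapped as neighbours. The log2 difference between T and B was 6.13 (SE 0.76, edgeR adjusted p = 0.00211), from 0.513 ± 0.478 CPM in B to 22.9 ± 8.11 CPM in T (SD, n = 4 each). Without the 3 libraries left out together it was 5.89, with an edgeR adjusted p of 0.0757. Without B deltaPOZ 2 it was 8.92 (edgeR adjusted p = 0.00160), when the B deltaPOZ group was 1 library at 0 counts and the value depended on the prior count of the fit.

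Red cell genes moved with Gfi1b between the lineages. The summed level of 11 erythroid markers was 5.31 to 222 CPM in B and 4799 to 23017 CPM in T. All 11 were called higher in T by edgeR, beside 19.3% of all genes. Gata1, the master regulator of red cell genes, had 0 counts in 3 of the 4 B libraries and 0.0997 CPM in B deltaPOZ 2, and was at 31.9 and 76.5 CPM in T wt and 31.6 and 48.4 CPM in T deltaPOZ. Gfi1b divided by Gata1 came to 0.720 and 0.421 for the T wt libraries, against 0.395 and 0.499 for T deltaPOZ. T wt 2 was highest and T wt 1 lowest of the T libraries in the erythroid sum, whereas Gfi1b was highest in T wt 2 and lowest in T deltaPOZ 1. Of 8 megakaryocyte markers 7 were tested and 5 were called higher in T, beside the same 19.3%. The part of red cell RNA in the difference was not tested. In whole tumour tissue, fewer cells of a type and less RNA per cell cannot be told apart.

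**Figure D2:**
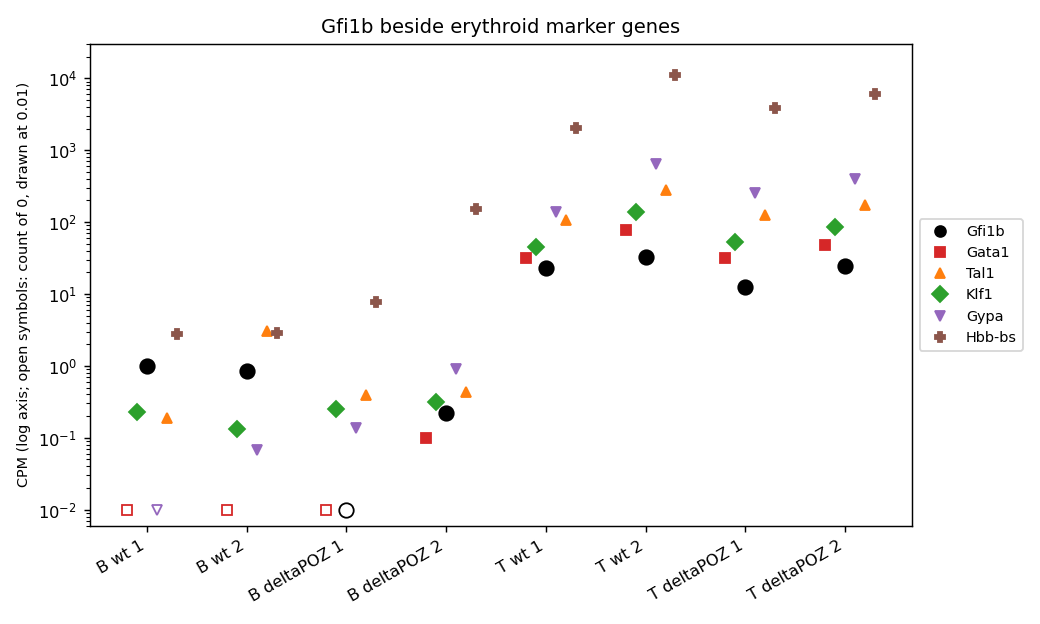
CPM on a log axis (vertical) of Gfi1b and 5 erythroid marker genes in each of the 8 libraries; open symbols are counts of 0, drawn at 0.01. Gfi1b and the 5 markers are higher in every T library than in any B library, and Gata1 has no count in B wt, where Gfi1b is at 0.987 and 0.845 CPM.

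In B wt, where Gfi1b was higher than in B deltaPOZ, Gata1 had no counts and Klf1, another red cell regulator, was at 0.228 and 0.133 CPM, against 0.254 and 0.319 CPM in B deltaPOZ. Tal1, a blood stem cell and red cell regulator, was at 0.190 and 3.07 CPM in B wt and 0.390 and 0.439 CPM in B deltaPOZ, so B wt 2 was the highest B library for it. Hbb-bs, a beta globin gene, was at 2.81 and 2.87 CPM in B wt and 7.72 and 153 CPM in B deltaPOZ. For Gfi1b the deltaPOZ minus wt difference in B was -3.04 (log2, SE 1.03, edgeR adjusted p = 0.349, unadjusted p = 0.0216), which did not pass, while DESeq2 gave an adjusted p of 0.00774. The erythroid sum in B was 5.31 and 7.96 CPM in wt and 13.2 and 222 CPM in deltaPOZ. Most of the 222 CPM in B deltaPOZ 2 was Hbb-bs (153 CPM). The part of red cell RNA in the Gfi1b difference in B was not tested. With 1 library left out the difference ran from -2.00 to -8.62, the last without B deltaPOZ 2, when it rested on a library at 0 counts and on the prior count of the fit. In T the difference was -0.59 (SE 0.84, edgeR adjusted p = 1).

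Gfi1 (ENSMUSG00000029275, chr5:107716657-107726036, minus strand) encodes the repressor of blood stem cells, lymphocyte precursors and granulocytes that shares its motif with Gfi1b. It was at 29.6 and 28.0 CPM (B wt), 5.71 and 36.7 (B deltaPOZ), 63.9 and 74.6 (T wt) and 85.2 and 47.3 (T deltaPOZ). All 4 T libraries lay above all 4 B libraries, and within each lineage the deltaPOZ libraries spanned the wt ones. B deltaPOZ 1 was the low library of the 8. The T minus B difference of Gfi1 was 1.45 (log2, SE 0.53, edgeR adjusted p = 0.0726) and did not pass. It passed without B deltaPOZ 1 (1.04, edgeR adjusted p = 0.0301), without B deltaPOZ 2 (2.40, edgeR adjusted p = 0.00422), in the wt libraries alone (1.28, edgeR adjusted p = 0.0273), with DESeq2 (adjusted p = 0.0146) and with limma-voom (adjusted p = 0.0302), and over all settings the adjusted p ran from 0.00422 to 0.280.

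Gfi1 is also a gene of granulocyte precursors. The summed neutrophil and macrophage markers were 182, 1315, 226 and 94.4 CPM in B and 804, 107, 500 and 223 CPM in T. Of the 10 markers edgeR called 0 between T and B, beside 35.3% of all genes. The part of granulocyte precursors in the Gfi1 level was not tested. The deltaPOZ minus wt difference of Gfi1 was -0.44 in B (SE 0.74, edgeR adjusted p = 0.848) and -0.06 in T (SE 0.73, edgeR adjusted p = 1). Both signs turned when 1 library was left out, to 0.40 in B without B deltaPOZ 1 and to 0.30 in T without T deltaPOZ 2.

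Gfi1 and Gfi1b repress through Kdm1a, a histone demethylase, with the Rcor scaffold proteins and histone deacetylases. Of 8 such corepressor genes none passed in T against B by edgeR, where 35.3% of all genes did. Rcor2 was nearest, with a log2 difference of -0.97 (edgeR adjusted p = 0.0647), from 29.7 ± 4.30 CPM (B wt) and 26.9 ± 5.17 CPM (B deltaPOZ) to 14.1 ± 7.61 CPM (T wt) and 14.7 ± 7.06 CPM (T deltaPOZ) (SD, n = 2). DESeq2 and limma-voom called it, with adjusted p of 0.0207 and 0.0394. Rcor1 followed with 0.61 (edgeR adjusted p = 0.0809) and passed without B deltaPOZ 2 (0.82, edgeR adjusted p = 0.0403). The median difference of the list was 0.13, against 0.05 over all genes.

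Bcl6 (ENSMUSG00000022508, chr16:23965052-23988852, minus strand) encodes the POZ zinc finger repressor that runs germinal centre B cells and follicular helper T cells. It was at 1.96 and 4.003 CPM (B wt), 3.18 and 1.08 (B deltaPOZ), 19.2 and 17.5 (T wt) and 8.28 and 8.37 (T deltaPOZ). The T wt libraries were the highest, the T deltaPOZ libraries came next without overlap, and the B libraries of both genotypes overlapped at the bottom. The T minus B difference was 2.30 (log2, SE 0.42, edgeR adjusted p = 0.00774), from 2.55 ± 1.30 to 13.4 ± 5.85 CPM (SD, n = 4 each). It was 2.54 without the 3 libraries left out together, with an edgeR adjusted p of 0.101, and 2.00 without B deltaPOZ 2 (edgeR adjusted p = 0.0132).

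In T tumours the deltaPOZ minus wt difference of Bcl6 was -1.14 (log2, SE 0.57, edgeR adjusted p = 1, unadjusted p = 0.0882), which did not pass. Leaving out any 1 library moved it between -1.21 and -1.08. In B it was -0.48 (SE 0.58, edgeR adjusted p = 0.768), and it turned to 0.18 without B wt 2 and to 0.09 without B deltaPOZ 2. The difference between these effects was -0.66 (SE 0.81, edgeR adjusted p = 0.939).

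Markers of the cells known for Bcl6 were read beside it. The 5 follicular helper T genes summed to 3.41 to 5.85 CPM in B and 168 to 192 CPM in T. Of the 5 genes, 4 were called higher in T by edgeR, beside 19.3% of all genes. In T the sum was 192 and 181 CPM in wt and 168 and 184 CPM in deltaPOZ, so the T genotypes overlapped in it. Most of it was Sh2d1a, at 145 and 159 CPM in T wt and 117 and 162 CPM in T deltaPOZ. Cxcr5 was at 8.52 and 2.04 CPM in T wt, 8.06 and 11.1 CPM in T deltaPOZ and 1.15 to 5.18 CPM in B. The 6 germinal centre B genes summed to 12.5 to 19.6 CPM in B and 16.8 to 26.8 CPM in T. Of the 6 genes, 1 was called higher in T, beside the same 19.3%. The T lineage sum did not overlap between the T genotypes, at 3028 and 3215 CPM in T wt and 2233 and 2519 CPM in T deltaPOZ. The parts of follicular helper T cells and of T cell content in the Bcl6 differences were not tested.

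Bcl6 acts through corepressors such as Ncor1 and Bcor. Of 7 corepressor genes 1 was higher and 0 lower in T, beside 19.3% higher and 16.0% lower of all genes. It was Ncor1, with 236 ± 29.4 CPM in B wt, 218 ± 53.3 in B deltaPOZ, 428 ± 8.93 in T wt and 366 ± 44.4 in T deltaPOZ (SD, n = 2). Its log2 difference was 0.80 (SE 0.15, edgeR adjusted p = 0.00889). The list's median was 0.35.

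Zbtb16 (ENSMUSG00000066687, chr9:48654297-48836222, minus strand) encodes PLZF, the POZ zinc finger factor of innate-like T cells such as NKT cells. It had 6 and 10 counts (B wt), 17 and 33 (B deltaPOZ), 21 and 12 (T wt) and 102 and 134 (T deltaPOZ). In CPM it was at 0.114 and 0.222 (B wt), 0.332 and 0.658 (B deltaPOZ), 0.390 and 0.216 (T wt) and 1.87 and 2.22 (T deltaPOZ). Both T deltaPOZ libraries lay above the other 6, the B genotypes did not overlap, and the T wt libraries overlapped both B groups. The level was low throughout, and every library was above the limit of 3 counts.

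For Zbtb16 the deltaPOZ minus wt difference in T was 2.75 (log2, SE 0.68, unadjusted p = 0.00515, edgeR adjusted p = 1) and in B 1.55 (SE 0.68, unadjusted p = 0.0572, edgeR adjusted p = 0.428), and neither passed. The mean over both lineages was 2.15 (SE 0.48, unadjusted p = 0.00301, edgeR adjusted p = 0.389), which DESeq2 called (adjusted p = 0.0172). No library left out turned a sign: the difference ran from 2.39 to 3.22 in T and from 0.98 to 2.16 in B. The difference between the effects was 1.19 (SE 0.94, edgeR adjusted p = 0.879). The T minus B difference was 1.45 (SE 0.47, edgeR adjusted p = 0.0522), which did not pass. It passed with DESeq2 (adjusted p = 0.0364) and in the edgeR fit without receptor segments (adjusted p = 0.0488), the adjusted p ran from 0.0364 to 0.480 over the other settings, and the filter that asked for 5 CPM in 2 libraries dropped the gene.

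Markers of innate-like T and NK cells, 7 in all, were read beside Zbtb16. Their sum was 276 and 150 CPM in T wt and 164 and 414 CPM in T deltaPOZ, and 4.10 and 47.5 CPM in B wt and 14.5 and 3.29 CPM in B deltaPOZ. Gzma alone was 298 of the 414 CPM in T deltaPOZ 2. The sums of the groups overlapped in both lineages. Between genotypes edgeR called 0 of the 7 markers in either lineage (smallest unadjusted p 0.0188 in B and 0.179 in T). It called 0.00608% of all genes in B and 0.0% in T, so the count of 0 says little about these markers. The part of innate-like cells in the Zbtb16 difference was not tested.

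Zbtb4 (ENSMUSG00000018750, chr11:69765912-69784023, plus strand) encodes a POZ zinc finger repressor that binds methylated DNA. It was at 17.0 and 7.29 CPM (B wt), 6.46 and 4.43 (B deltaPOZ), 16.4 and 15.3 (T wt) and 13.1 and 14.7 (T deltaPOZ). B wt 1 was the highest of all 8 libraries and B wt 2 lay near the B deltaPOZ pair. The deltaPOZ minus wt difference in B was -1.16 (log2, SE 0.45, unadjusted p = 0.0362, edgeR adjusted p = 0.389), which did not pass, and it was -0.42 without B wt 1. In T it was -0.19 (SE 0.44, edgeR adjusted p = 1). The T minus B difference was 0.87 (SE 0.31, edgeR adjusted p = 0.0698) and passed without B wt 1 (1.23, edgeR adjusted p = 0.0231), under the filter of 5 CPM in 2 libraries (edgeR adjusted p = 0.0494) and with DESeq2 (adjusted p = 0.0245). Over all settings its adjusted p ran from 0.0231 to 0.617.

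Among 45 POZ zinc finger genes, counting Bcl6, Zbtb16, Zbtb4 and Miz1 itself, Zbtb16 had the highest deltaPOZ minus wt value in T and the third highest in B. Bcl6 had the lowest in T, and Zbtb4 the second lowest in B. None of the 45 was called between genotypes by edgeR, and neighbouring ranks lay within the errors. In T Bcl6 was at -1.14 (SE 0.57) and Zbtb32 at -1.05 (SE 1.25). In B Zbtb4 was at -1.16 (SE 0.45) and Bcl6b at -1.11 (SE 1.34). Of the other 41 genes, 7 were higher and 4 lower in T than in B, beside 19.3% higher and 16.0% lower of all genes. Those with the smallest p that were higher were Zbtb7a, a repressor of fetal globin genes (0.69, edgeR adjusted p = 0.00925), Zbtb45 (0.77, edgeR adjusted p = 0.0195), Zbtb38 (1.65, edgeR adjusted p = 0.0218) and Zbtb8b, whose levels were 0 to 0.0390 CPM in B and 0.274 ± 0.0460 CPM in T wt and 0.334 ± 0.161 CPM in T deltaPOZ. Those lower were Zbtb12 (-2.61, edgeR adjusted p = 0.000462), Zbtb48, a telomere-binding protein (-0.61, edgeR adjusted p = 0.0311), Zbtb5 (-0.68, edgeR adjusted p = 0.0379) and Zbtb32 (-2.93, edgeR adjusted p = 0.0450). The value of Zbtb32 was -1.93 without B wt 2 and -1.86 without B deltaPOZ 2 (edgeR adjusted p = 0.138 for both), and that of Zbtb38 was 1.09 without T wt 1. The median over the 41 was 0.04.

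**Figure D3:**
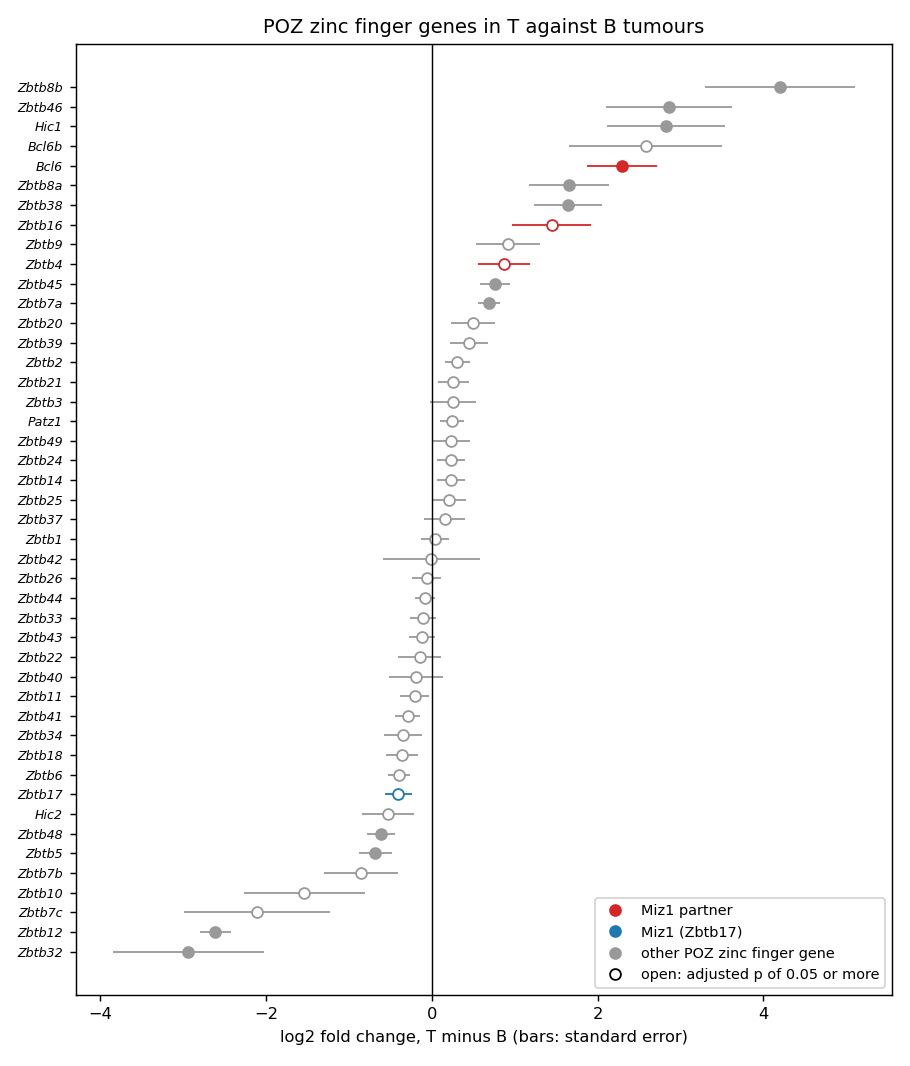
T minus B log2 fold change (horizontal axis) of 45 POZ zinc finger genes in order of size, with standard errors as bars; red marks Bcl6, Zbtb16 and Zbtb4, blue Miz1, and filled symbols an edgeR adjusted p under 0.05. Bcl6 is number 5 from the top at 2.30, Zbtb16 number 8 at 1.45 and Zbtb4 number 10 at 0.87.

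Hcfc1 (ENSMUSG00000031386, chrX:73942792-73966357, minus strand) encodes a chromatin scaffold that joins histone methyltransferases and other enzymes to transcription factors. It was at 172 and 196 CPM (B wt), 171 and 199 (B deltaPOZ), 395 and 371 (T wt) and 363 and 252 (T deltaPOZ). Every T library lay above every B library, and the B genotypes covered the same range. The T minus B difference was 0.90 (log2, SE 0.15, edgeR adjusted p = 0.00600), from 184 ± 15.4 to 345 ± 63.5 CPM (SD, n = 4 each). It was 1.02 without the 3 libraries left out together, with an edgeR adjusted p of 0.0583, and 0.95 without B deltaPOZ 2 (edgeR adjusted p = 0.0165).

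The deltaPOZ minus wt difference of Hcfc1 was 0.00 in B (SE 0.21, edgeR adjusted p = 1), and its sign turned when B wt 1 or B deltaPOZ 2 was left out. In T it was -0.32 (SE 0.22, edgeR adjusted p = 1), and without T deltaPOZ 2 it was -0.07. Hcfc1 and Huwe1 are X-linked and the B genotypes differed in Xist as given above. In T, Xist was at 1246 CPM in T wt 1 and at 26.0, 11.8 and 35.4 CPM in T wt 2, T deltaPOZ 1 and T deltaPOZ 2. The part of sex in the B, T and T minus B differences of Hcfc1 and Huwe1 was not tested.

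Of 16 genes of complexes known to hold Hcfc1, 1 was higher and 3 lower in T than in B. Of all genes 19.3% were called higher and 16.0% lower. Kmt2a, a histone H3 methyltransferase, was the higher one (0.62, edgeR adjusted p = 0.0416). Ash2l (-0.65, edgeR adjusted p = 0.00729), Wdr5 (-0.66, edgeR adjusted p = 0.00949) and Rbbp5 (-0.39, edgeR adjusted p = 0.0460), the core subunits of these methyltransferases, were lower. The list's median was -0.06.

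Huwe1 (ENSMUSG00000025261, chrX:151800807-151935417, plus strand) encodes a very large ubiquitin ligase that marks Myc family proteins, Mcl1 and Miz1. It was at 451 and 551 CPM (B wt), 548 and 660 (B deltaPOZ), 607 and 624 (T wt) and 616 and 488 (T deltaPOZ). The highest library was 1.46 times the lowest, and each group overlapped its neighbour in the order of means. The log2 differences were 0.27 for deltaPOZ minus wt in B (SE 0.20, edgeR adjusted p = 0.618), -0.16 in T (SE 0.20, edgeR adjusted p = 1) and 0.08 for T minus B (SE 0.14, edgeR adjusted p = 0.677). Of 8 substrate genes 7 were tested (Mycn was not) and none passed in T against B by edgeR, where 35.3% of all genes did. Ddit4, a stress-induced inhibitor of mTORC1, was nearest (1.55, edgeR adjusted p = 0.0503), and DESeq2 called it (adjusted p = 0.00577). Trp53, which encodes p53, followed with 0.60 (edgeR adjusted p = 0.149) and passed without B deltaPOZ 1 (0.95, edgeR adjusted p = 0.0238).

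Topbp1 (ENSMUSG00000032555, chr9:103305215-103350428, plus strand) encodes the scaffold that starts DNA replication forks and switches on the checkpoint kinase ATR. It was at 649 and 508 CPM (B wt), 442 and 554 (B deltaPOZ), 593 and 486 (T wt) and 577 and 514 (T deltaPOZ). The groups overlapped throughout, and the highest library was 1.47 times the lowest. The differences were -0.22 in B (SE 0.21, edgeR adjusted p = 0.711), 0.02 in T (SE 0.21, edgeR adjusted p = 1) and 0.02 for T minus B (SE 0.15, edgeR adjusted p = 0.949). Around it, 1 of 12 checkpoint genes was higher and 3 lower in T than in B, beside 19.3% higher and 16.0% lower of all genes. Mdc1, a mediator at DNA breaks, was higher (0.84, edgeR adjusted p = 0.0282). Rad1, a subunit of the checkpoint clamp (-0.89, edgeR adjusted p = 0.00281), the kinase gene Atr (-0.88, edgeR adjusted p = 0.00925) and Mtbp (-0.55, edgeR adjusted p = 0.0253) were lower. The list's median was -0.29.

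**Figure D4:**
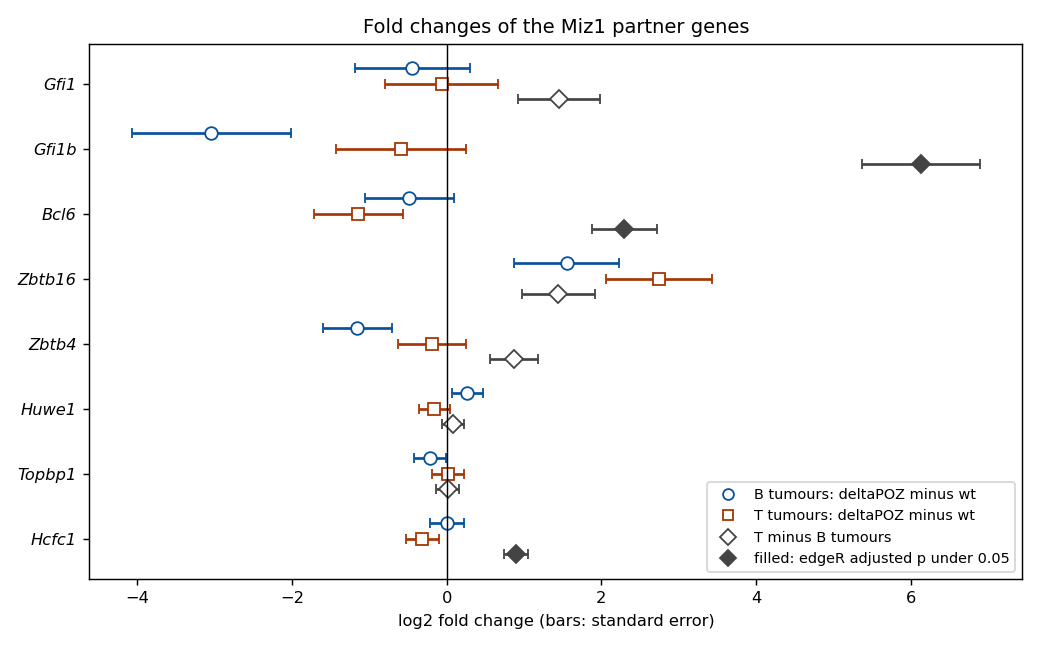
Log2 fold change with its standard error (horizontal axis) of the 8 genes for deltaPOZ minus wt in B (circles) and T (squares) and for T minus B (diamonds); filled symbols have an edgeR adjusted p under 0.05. Only the T minus B diamonds of Gfi1b, Bcl6 and Hcfc1 are filled, at 6.13, 2.30 and 0.90.

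Levels of different genes were set against each other per kilobase of exon. In T tumours the mean level ran from 48.3 CPM per kb for Topbp1 through Hcfc1 (41.3), Huwe1 (24.8), Gfi1 (21.3), Gfi1b (12.5), Bcl6 (1.99) and Zbtb4 (1.83) to 0.222 for Zbtb16. In B tumours Topbp1 was at 48.0 CPM per kb, Huwe1 at 23.5, Hcfc1 at 22.0, Gfi1 at 7.85, Zbtb4 at 1.08, Bcl6 at 0.381, Gfi1b at 0.280 and Zbtb16 at 0.0627. Topbp1, Huwe1 and Hcfc1 were thus the highest in both lineages, with Gfi1 near Huwe1 in T. Bcl6, Zbtb4 and Zbtb16 were at or under 2.74 CPM per kb in every group.

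Miz1 and its repressor partners are known to act on cell cycle inhibitor genes. Of 6 such genes 2 were higher and 1 lower in T than in B: Cdkn2c (1.65, edgeR adjusted p = 0.00538) and Cdkn1b (1.01, edgeR adjusted p = 0.00908) were higher and Cdkn2a (-4.02, edgeR adjusted p = 0.0450) was lower. Cdkn2a was at 0.987 and 11.7 CPM in B wt, 2.38 and 90.7 CPM in B deltaPOZ and 0.448 to 1.47 CPM in T, so B wt 1 lay within the T range. Without B deltaPOZ 2 its difference was -1.87 (edgeR adjusted p = 0.165). Of 9 other reported Miz1-binding proteins 3 were higher and 1 lower: the acetyltransferase gene Ep300 (0.80, edgeR adjusted p = 0.00497), the POZ protein gene Nacc1 (0.99, edgeR adjusted p = 0.00792) and Ywhah, a 14-3-3 protein (0.62, edgeR adjusted p = 0.0406), were higher, and Npm1, the nucleolar chaperone that Miz1 needs as a coactivator (-1.28, edgeR adjusted p = 0.00123), was lower. Over all 8 lists 27 of 104 tested genes were called in T against B, beside the background of 35.3%. Leaving out 1 library ended the call at least once for Mdc1, Mtbp, Kmt2a, Rbbp5, Zbtb8b, Zbtb45, Zbtb38, Zbtb48, Zbtb5, Zbtb32, Cdkn2a and Ywhah, and for none of the other genes named as called from the lists. In the wt libraries alone the called ones among them were Atr, Ep300, Npm1 and Zbtb12, and without the 3 libraries left out together Zbtb12 alone (-2.56, edgeR adjusted p = 0.0311).

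Between genotypes 0 of these 104 genes were called by edgeR in B or in T. In B 8 of them (7.69%) had an unadjusted p under 0.05, beside 12.1% of all genes, and DESeq2 called 3 of 101, beside 4.84% of all genes. In T 3 (2.88%) had an unadjusted p under 0.05, beside 2.65%, and DESeq2 called 0, beside 0.31%. limma-voom called 0 in both. The gene with the smallest p in B was Cdkn2c, at 66.6 ± 28.9 CPM in wt and 21.5 ± 8.72 in deltaPOZ (SD, n = 2; log2 -1.63, edgeR adjusted p = 0.252), which DESeq2 called (adjusted p = 0.00558). Ajuba, a Gfi1 corepressor, followed at low levels, with 0.607 and 1.201 CPM in wt and 0.0780 and 0.159 CPM in deltaPOZ. Its log2 difference was -2.90 (edgeR adjusted p = 0.274), and DESeq2 called it (adjusted p = 0.0496). In T the smallest p was that of Npm1, at 1191 ± 132 CPM in wt and 1686 ± 243 in deltaPOZ (0.50, unadjusted p = 0.0297, edgeR adjusted p = 1), followed by Ogt, which adds sugar to proteins and cuts Hcfc1 (-0.40, unadjusted p = 0.0345).

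**Figure D5:**
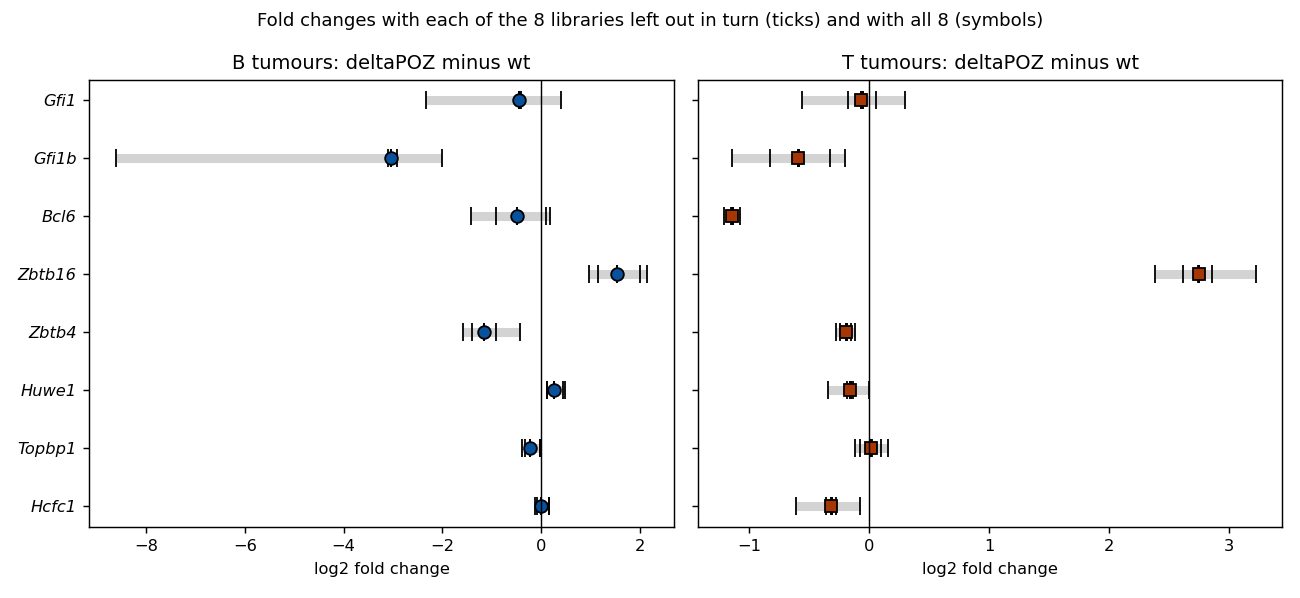
deltaPOZ minus wt log2 fold change (horizontal axis) of the 8 genes in B and T with all 8 libraries (symbols) and with each library left out in turn (ticks, grey bar as their range). The ranges of Bcl6 in T (-1.21 to -1.08) and of Zbtb16 in T (2.39 to 3.22) lie on 1 side of 0, and those of Gfi1 in both lineages cross it.

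For the 4 genes that varied most over the 8 libraries (Gfi1b, Bcl6, Zbtb16 and Gfi1), the 3 genes with the most similar pattern were found by the root mean square difference of centred log2 CPM over the 8 libraries, among 12079 genes (12080 for Zbtb16). These are descriptions over 8 libraries that share lineage and run. For Bcl6 they were Mcu, the mitochondrial calcium channel (0.27), Tgtp2 (0.33) and Rasl11b (0.33), and for Gfi1 they were Ulk1, a kinase that starts autophagy (0.30), Furin, a protease (0.30), and Pkd1 (0.31). Gfi1b had Ntn1 (0.76), Spo11 (0.77) and 2610307P16Rik (0.81) as its nearest. Zbtb16 had Gm6377 (0.66), Ahnak (0.72) and Trpm2 (0.73), and these distances were larger than those of Bcl6 and Gfi1. Ahnak, the most abundant of these 3, was at 47.8 and 183 CPM (B wt), 156 and 624 (B deltaPOZ), 319 and 146 (T wt) and 597 and 423 (T deltaPOZ), so its B genotypes overlapped where those of Zbtb16 did not.

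Averaged over lineages, the deltaPOZ effect called 0 of 8 genes by edgeR (background 0.0%), with Zbtb16 and Gfi1b under an unadjusted p of 0.05, as 8.9% of all genes. The average for Gfi1b was -1.82 (SE 0.66, edgeR adjusted p = 0.535). DESeq2 called both, with adjusted p of 0.0172 for Zbtb16 and 0.0310 for Gfi1b, where it called 2.29% of all genes, and limma-voom called none. The test of whether the effect differed between T and B called 0 of 8 by edgeR (background 0.0%), DESeq2 (background 1.56%) and limma-voom, none had an unadjusted p under 0.05, as 6.26% of all genes had, and the edgeR adjusted p ran from 0.816 to 0.995.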

How the data were processed

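Gene counts were made by the authors and deposited as 1 table per library, with reads aligned to mm10 (GRCm38) by TopHat2 2.0.10 and counted with HTSeq, SAMtools and DESeq also being named, per the submitters' processing notes. The kit was TruSeq Stranded mRNA, per the labels' protocols. Which annotation release HTSeq used, with what strand setting and what treatment of overlapping genes, is not given in the sources used here, so reads of a gene and its antisense partner may not be separated. Counts of no feature (30.4 to 39.3% of a library) and ambiguous counts (0.471 to 0.554%) were left out. GENCODE M21 (GRCm38) gave names and positions for 40254 of 41214 identifiers (97.7%). The remaining 960, with no more than 0.267% of any library, stayed in the fits. Promoters came from RefSeq (GRCm38.p6), from 250 bases before to 50 after each start.

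Counts were fitted in edgeR 4.0.16 (R 4.3.3) over all 8 libraries with 1 mean per group, scaling by trimmed mean of M values (factors 0.929 to 1.087), filterByExpr, glmQLFit and glmQLFTest, with 4 residual degrees of freedom and a biological coefficient of variation of 0.450. Adjustment was by Benjamini-Hochberg across 16456 genes, with a threshold of 0.05, and an SE is the fold change divided by the square root of F. DESeq2 1.42.0 and limma-voom (limma 3.58.1) were alternatives. The others were median-of-ratios factors, filters on a total of 10 counts and on 5 CPM in 2 libraries, fits of 1 lineage, of the wt libraries alone, with additive terms or without receptor segments, and each library left out. A fit without B wt 2, T wt 1 and T deltaPOZ 2 was added after the data were seen. Summaries and plots were made with pandas 2.3.3, NumPy 2.4.6 and matplotlib 3.10.9 (Python 3.11.15).

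The code was tested on simulated counts of 16066 genes for B, where edgeR recovered 1.49% of 2-fold, 41.8% of 4-fold and 62.1% of 8-fold changes with 6 false calls and DESeq2 17.9, 76.1 and 86.4% with 85. For T (16051 genes) edgeR recovered 2.99, 35.8 and 71.2% with 3 false calls, and for T against B (16036 genes) 25.4, 61.2 and 83.3% with 4. DESeq2 made 79 false calls for T, 103 for T against B and 114 for the mean effect over lineages, where edgeR made 7. Each simulated gene had 1 mean over all 8 libraries and the dispersion fitted by edgeR. Changes were put only into genes with a mean above 1 CPM. The recovered shares thus do not describe a gene at the levels of Zbtb16 or of Gfi1b in B. False calls were counted over all genes and not split by level. A gene called by DESeq2 and not by edgeR is to be read with these false calls and limits in mind.

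The members, lists and tests were chosen with earlier results of these data known. All 8 members and Zbtb17 are named. Of each list, genes past the threshold are named up to 4 per direction by smallest p, and where none passed up to 2 with the smallest p, which between genotypes are the 2 smallest over all 8 lists together. For the 4 members with the largest SD of log2 CPM (prior count 2), the 3 most similar genes with a mean of at least 1 CPM are named, receptor segments and pseudogenes left out. No sample was left out of the main comparisons. A few single-gene values are not reported here.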

Additional observations from a re-analysis of the deposited data

How the results depend on the processing

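With 2 mice a group, the genotype comparisons could pass only large changes, and single libraries decided several signs. Of 627 values of the 8 genes under the other settings, 581 kept their direction and their side of the threshold, 30 turned in sign, 13 passed where they had not and 3 no longer passed. Each sign that turned belonged to a value that was not called. The cause was not tested. DESeq2 called 1 of the 8 genes in B, 2 on average over lineages and 6 in T against B, and it made more false calls than edgeR on simulated counts. The fit without B wt 2, T wt 1 and T deltaPOZ 2, chosen after seeing the data and with 1 residual degree of freedom, called 0 in T against B, where it called 7.90% of all genes. With 1 library left out, 0 of the 8 were called in B and in T, and 3 to 4 in T against B.

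Signs turned with 1 library left out in B for Bcl6 (-1.41 to 0.18), Gfi1 (-2.33 to 0.40), Hcfc1 (-0.11 to 0.17) and Zbtb17 (-0.23 to 0.18), and in T for Gfi1 (-0.55 to 0.30), Huwe1 (-0.34 to 0.0026) and Topbp1 (-0.12 to 0.16). On average over lineages they turned for Gfi1 (-1.20 to 0.18), Huwe1 (-0.036 to 0.17) and Topbp1 (-0.19 to 0.0066), in the difference between lineages for Bcl6 (-1.32 to 0.28) and Gfi1 (-0.46 to 2.27), and in T against B for Huwe1 (-0.0096 to 0.16) and Topbp1 (-0.086 to 0.11). Topbp1 in T against B was also -0.0066 with the filter on a total of 10 counts, -0.084 in wt libraries alone and -0.13 without the 3 libraries. Without those 3, Bcl6 in B was 0.11, Gfi1 in T 0.17, the average for Hcfc1 0.029 and the lineage difference for Zbtb17 0.19.

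Over all genes DESeq2 called 688 in B, 49 in T and 6897 in T against B, where edgeR called 1, 0 and 5801. T against B fell to 2035 calls in wt libraries alone, to 1312 without the 3 libraries, to 3840 without T wt 1 and to 3621 without T deltaPOZ 2. No paired analysis was possible because the labels number no replicates, and numbers given in record order pair nothing.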
